A study of Mus musculus with 6 samples.

Results

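The genes described here encode the factors that start and extend protein synthesis: the eukaryotic initiation factors (eIF1 to eIF6) and elongation factors (eEF1 and eEF2). They were chosen by symbol. Of the 22651 genes in each gene table, 64 had a symbol starting with Eif1 to Eif6, Eef1 or Eef2, and 49 of these were kept. The 15 left out were the cap-binding protein Eif4e and its relatives, the 4E-BP inhibitors, the eIF2 and eEF2 kinases, Eef1e1 and the Y-linked Eif2s3y. Among the 49 were 4 genes, Eif2c1 to Eif2c4, which are older symbols of the Argonaute genes (Ago1 to Ago4) and encode RNA-silencing proteins. These 4 are given apart. The other 45 are called factors here, and include Eif4a3, a relative of the initiation factor eIF4A that belongs to the exon junction complex. The eIF3 subunit Eif3a, the eEF1 subunit Eef1g and Eif1ad were not analysed here.

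mRNA was sequenced from the telencephalon of newborn mice (postnatal day 0). The 3 WT mice carried the floxed Tsc1 allele on both chromosomes and no Cre (TSC1 flox/flox;Emx1 +/+), and the 3 TSC1-KO mice carried the same floxed alleles with Cre expressed from the Emx1 locus (TSC1 flox/flox;Emx1-cre/+). The controls were littermates, but the labels do not say which mice shared a litter. Emx1 is expressed in the embryonic dorsal telencephalon, so cells of other origin in the dissected tissue keep TSC1. The comparison asks which transcripts differ when TSC1, an inhibitor of mTOR signaling, is removed.

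A round of translation begins when eIF2, charged with GTP and the initiator tRNA, joins the small ribosomal subunit together with eIF1, eIF1A, eIF3 and eIF5. The eIF4 group brings the mRNA to this complex by its cap and unwinds it, and eIF5B joins the large subunit. eEF1A then delivers each aminoacyl-tRNA and eEF2 moves the ribosome along the mRNA. mTOR complex 1 controls this machinery largely at the protein level, through phosphorylation of the 4E-BPs and of the S6 kinases. It also favours the translation of mRNAs that begin with a C followed by a run of pyrimidines, the terminal oligopyrimidine (TOP) mRNAs, among which are ribosomal protein and elongation factor mRNAs.

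Because of this link, the regions around the start sites were searched for pyrimidine runs. RefSeq start-site windows (GRCm38.p6, the assembly also called mm10) were held for 39 of the 49 genes. A run was a C followed by at least 7 further letters that are each C or T, on the strand of the gene only, lying between 20 bases before and 30 bases after the annotated start. A run was present in 9 of the 39 genes (23.1%), compared with 14.9% of all 32851 promoter windows searched in the same way and 18.6% of the 10263 tested genes with a window. The 9 stretches of 30 bases are shown 5′ to 3′ because they are the ones that hold a run. Capitals mark only the longest run of each gene. The stretch of Eif3l begins with a shorter run, cttcttcc, that also meets the rule and is left in small letters. The 9 stretches are given in the order eIF2, eIF2B, eIF3 and eEF1A.
Eif2s3x, chrX:94212627-94212656, minus strand: ttttCCTTTTCTCTCCgagcaagatggctg
Eif2b2, chr12:85219476-85219505, plus strand: cggaagttgaCCTCTCTCggcccggaagtg
Eif2b5, chr16:20498794-20498823, plus strand: tgcgcattCCTTCCTCTTTCTCTCCCTgca
Eif3f, chr7:108934410-108934439, plus strand: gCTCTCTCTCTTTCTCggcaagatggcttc
Eif3k, chr7:28981864-28981893, minus strand: gcgctggtgctgaaagcgCCTTTCCCTTTg
Eif3l, chr15:79075218-79075247, plus strand: cttcttccgCTCTCTCCCacgggcttctgg
Eif3m, chr2:105017026-105017055, minus strand: cggcaccgCTCTCTTTTCCggtcggcgtgt
Eef1a1, chr9:78481700-78481729, minus strand: CCCTCTTCCCgagggtgggggagaacggta
Eef1a2, chr2:181156977-181157006, minus strand: cactggttCTCTCCCTCgctccggtgcatc

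The other elongation factor genes with a window, Eef2 and Eef1b2, held no run that begins with a C and reaches that length near the annotated start, and the 30 bases around their starts are shown for comparison.
Eef2, chr10:81176626-81176655, plus strand: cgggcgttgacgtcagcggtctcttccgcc
Eef1b2, chr1:63176826-63176855, plus strand: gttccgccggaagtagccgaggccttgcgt

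Total expected counts per mouse, RSEM's estimate of the reads from each gene summed over genes, were 14119365 to 17772865, so that 3 counts correspond to 0.169 to 0.212 CPM. The library of TSC1-KO replicate 3 stood apart from the other 2 TSC1-KO libraries. On the first principal component, which held 47.7% of the variance, it lay at −3.95, whereas the others lay at 26.5 and 30.3. WT replicates 1, 2 and 3 lay at −7.43, −19.1 and −26.3. Tsc1 itself was at 50.2, 32.0 and 28.4 TPM, the estimate per transcript length scaled to the same total in every mouse, in WT replicates 1, 2 and 3 and at 27.1, 21.7 and 22.4 TPM in TSC1-KO replicates 1, 2 and 3, so the groups did not overlap. Its log2 difference was −0.66 (SE 0.18, edgeR adjusted p = 0.1), and it did not pass the threshold. Only part of the gene is floxed and other cells keep it, so the gene total checks the labels only in part. The dorsal telencephalon marker Emx1 was at 36.2 to 47.4 TPM and 5 neuron markers summed to 9499 to 10725 TPM, and the summed TPM of 6 marker genes of thalamus, midbrain and hindbrain was at most 2.3. Some markers of cell types differed between the groups. The summed TPM of 8 ventral telencephalon markers was 351 to 429 in WT and 197 to 274 in TSC1-KO mice, with 3 of 8 called lower (Dlx1, Gad1 and Gad2) and all 8 below 0. The sums of choroid plexus markers were 1167 to 2454 in WT and 28.8 to 859 in TSC1-KO mice, and those of red blood cell markers, which overlapped, 1694 to 5566 and 1291 to 1783. Of the remaining markers, the astrocyte gene Gfap rose 2.13-fold (edgeR adjusted p = 0.0068), and the progenitor gene Sox2 (0.722 times the WT level, adjusted p = 0.030) and the dorsal telencephalon gene Bcl11b (0.676 times, adjusted p = 0.048) fell. The part of these cell types in the values below was not tested.

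None of the 49 genes changed by the edgeR quasi-likelihood test at a Benjamini-Hochberg adjusted p below 0.05, in either direction. Over all 13969 genes tested, 212 passed (1.52%), of which 120 were higher (0.859%) and 92 lower (0.659%) in TSC1-KO mice. At an unadjusted p below 0.05 there were 8 of 49 (16.3%), 4 higher and 4 lower, against 18% of all genes (9.04% higher and 8.93% lower). DESeq2 called 1 of the 49, Eif4a1, as lower, against 2.21% of all genes called lower by it, and limma on log2(TPM + 1) called the same gene, against 0.988%. The median log2 difference (TSC1-KO minus WT) was −0.04 over the 49 genes and −0.0027 over all tested genes. All 49 genes passed the filter on low counts.

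The replicates set narrow limits on most factors. Apart from Eif3j1 and Eif3j2, treated below, 43 factors remained, and their standard errors had a median of 0.080 on the log2 scale. The largest fall among them was 1.21-fold (Eif4a1) and the largest rise 1.2-fold (Eif2s2). All 43 of their 95% confidence intervals lay within 0.5 of 0 on the log2 scale, the lowest bound being −0.43 and the highest 0.48, and 6 of the 43 did not include 0. An interval without 0 corresponds to an unadjusted edgeR p below 0.05, which 18% of all tested genes had. In TPM, all 3 TSC1-KO mice lay above all 3 WT mice for 8 of the 49 genes (16.3%, against 12.3% of all genes) and below them for 9 (18.4%, against 10.3%). In this bulk tissue, fewer cells of a type and less RNA per cell cannot be told apart.

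**Figure D1:**
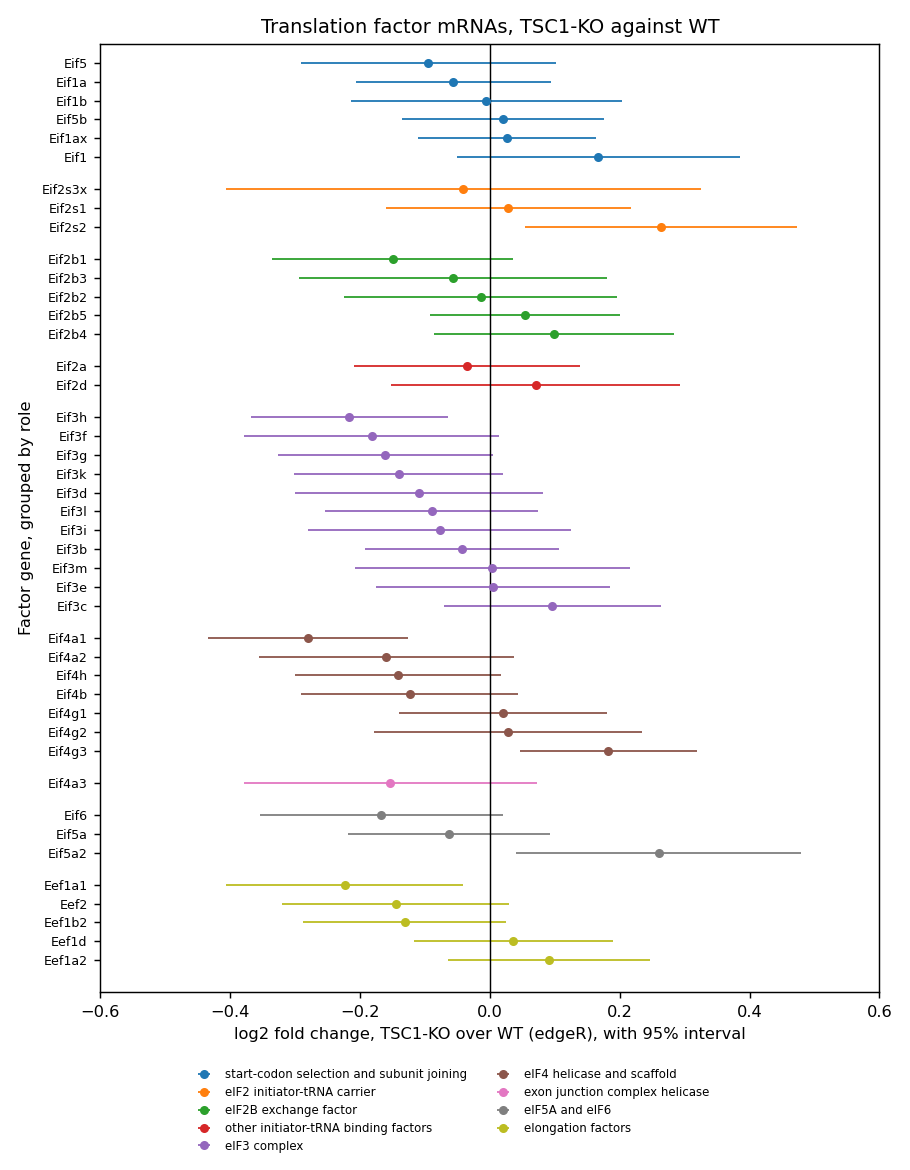
Log2 fold change of TSC1-KO over WT mice by edgeR (x axis) for the 43 factors other than Eif3j1 and Eif3j2 (y axis and colour, by role), with points for the estimate and bars for its 95% confidence interval over 3 mice against 3. All intervals lie within 0.5 of 0, and 6 do not include it, those of Eif2s2, Eif4g3 and Eif5a2 on the side higher in TSC1-KO mice and those of Eif3h, Eif4a1 and Eef1a1 on the side lower. Of all tested genes, 18% had an unadjusted edgeR p below 0.05, which corresponds to an interval without 0.

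The factors that select the start codon and join the subunits were among the abundant ones. Eif1, which keeps the ribosome scanning until an AUG is met, was at 485, 581 and 584 TPM in WT replicates 1 to 3 and at 617, 616 and 667 TPM in TSC1-KO replicates 1 to 3. All 3 TSC1-KO mice lay above the WT mice, by a log2 difference of 0.17 (SE 0.097, edgeR adjusted p = 0.40) that did not pass the test. Eif1b, a second gene for eIF1 and the most abundant member of this role, was at 569, 688 and 687 TPM in WT and at 672, 662 and 658 TPM in TSC1-KO mice, with overlapping groups (log2 difference −0.0057, SE 0.093). The other 4 members overlapped between the groups. Eif1ax, the X-linked gene for eIF1A, which binds the decoding site, was at 315 to 342 TPM over the 6 mice, and its relative Eif1a was at 75.6 to 85.4 TPM. Eif5, which makes eIF2 hydrolyse its GTP at the start codon, was at 260 to 302 TPM. Eif5b, the GTPase of subunit joining and the lowest of this role, was at 48.5 to 57.3 TPM.

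Of the 3 subunits of eIF2, which carries the initiator tRNA, the beta subunit gene Eif2s2 had the largest rise of the 43 factors. It was at 117, 138 and 131 TPM in WT mice and at 169, 144 and 162 TPM in TSC1-KO mice, with every TSC1-KO mouse above every WT mouse. Its log2 difference was 0.26 (SE 0.093, 95% confidence interval 0.05 to 0.47), with an edgeR adjusted p of 0.18. The alpha subunit gene Eif2s1, which holds the serine phosphorylated by the stress kinases, was lowest of the 3 at 59.4 to 71.5 TPM, with overlapping groups (log2 difference 0.03, SE 0.084). Eif2s3x, the X-linked gene of the tRNA-binding gamma subunit, was the most abundant of the 3. It was at 292, 313 and 209 TPM in WT and at 302, 299 and 206 TPM in TSC1-KO mice. Replicate 3 of each group was low, and the spread within a group exceeded the difference between the groups (log2 difference −0.04, SE 0.16, 95% confidence interval −0.41 to 0.32). Without replicate 3 of both groups the difference was −0.03 (SE 0.095, edgeR adjusted p = 0.91).

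**Figure D2:**
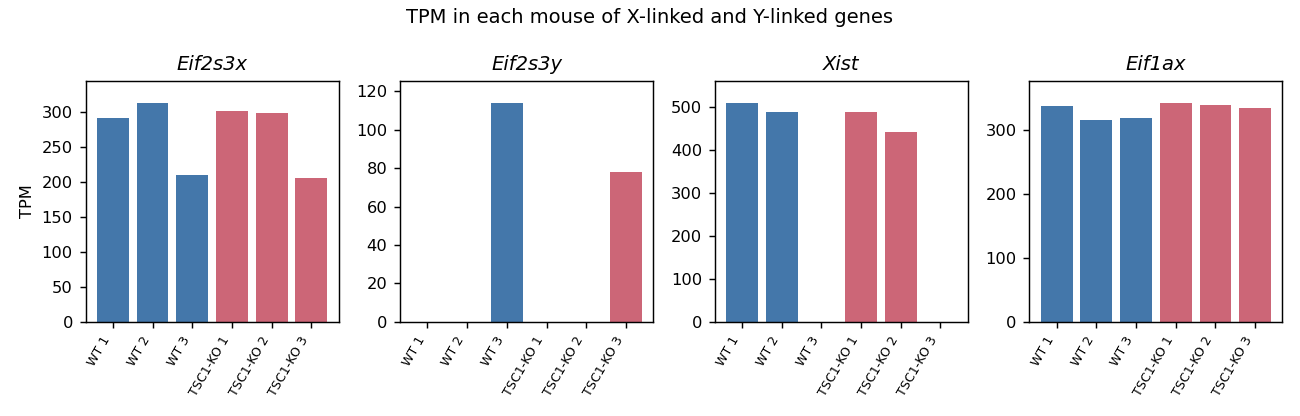
TPM (y axis, from 0) of Eif2s3x, its Y-linked partner Eif2s3y, Xist and Eif1ax in each of the 3 WT mice (blue bars) and 3 TSC1-KO mice (red bars). Eif2s3x is lower in replicate 3 of both groups, the 2 mice in which Eif2s3y is above 0 and Xist is at most 0.66 TPM, while Eif1ax lies between 315 and 342 TPM in every mouse.

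The 5 subunits of eIF2B, which reloads eIF2 with GTP and whose mutations cause a leukodystrophy in people, lay between 38.4 and 99.4 TPM and did not pass the test. Eif2b5, which holds the catalytic epsilon subunit, was the most abundant at 90.0 to 99.4 TPM, with overlapping groups (log2 difference 0.05, SE 0.065). Eif2b3 was the least abundant at 38.4 to 43.0 TPM (log2 difference −0.06, SE 0.11). Eif2b4 was at 49.9, 49.0 and 50.5 TPM in WT mice and at 54.0, 57.2 and 52.3 TPM in TSC1-KO mice, the only subunit of the 5 whose groups did not overlap (log2 difference 0.10, SE 0.082, edgeR adjusted p = 0.57). Eif2b1 was at 47.3 to 55.1 TPM and Eif2b2 at 49.3 to 55.3 TPM over the 6 mice. Of the 2 other proteins that can bind initiator tRNA at non-canonical starts, Eif2a was at 93.0 to 106 TPM and Eif2d at 37.1 to 44.0 TPM. Both overlapped between the groups.

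eIF3, the largest of the initiation factors, holds the small subunit and the other factors together, and 13 rows of the table belonged to it. Apart from the Eif3j pair, the 11 subunits had mean levels from 148 TPM (Eif3b) to 470 TPM (Eif3h) over the 6 mice, a 3.17-fold span. Eif3h was at 478, 513 and 509 TPM in WT mice and at 445, 434 and 444 TPM in TSC1-KO mice. Every TSC1-KO mouse lay below every WT mouse, by a log2 difference of −0.22 (SE 0.067, 95% confidence interval −0.37 to −0.07). The edgeR adjusted p was 0.14, and with 1 replicate left out it ran from 0.0473 (without WT replicate 1) to 0.404 (without WT replicate 2). Eif3k was at 409.5, 428 and 445 TPM in WT mice and at 405, 404 and 389 TPM in TSC1-KO mice. Eif3g was at 177, 177 and 186 TPM in WT mice and at 168, 163 and 164 TPM in TSC1-KO mice. For both, the TSC1-KO mice lay below the WT mice, but the log2 differences of −0.14 (SE 0.072, Eif3k) and −0.16 (SE 0.073, Eif3g) did not pass the test (edgeR adjusted p = 0.34 and 0.29).

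Eif3c, a core subunit, lay the other way. It was at 320, 310 and 326 TPM in WT mice and at 343, 326 and 374 TPM in TSC1-KO mice. TSC1-KO replicate 2 lay just above WT replicate 3, and the log2 difference was 0.10 (SE 0.074, edgeR adjusted p = 0.53). Eif3f, at 329, 373 and 381 TPM in WT mice and at 316, 345 and 316 TPM in TSC1-KO mice, had the fifth largest fall of the 49 genes (log2 difference −0.18, SE 0.087, edgeR adjusted p = 0.31), and its groups overlapped. The groups also overlapped for Eif3e (299 to 349 TPM over the 6 mice), Eif3l (210 to 236 TPM), Eif3d (177 to 202 TPM), Eif3m (151 to 174 TPM), Eif3i (145 to 173 TPM) and Eif3b (142 to 153 TPM). Over the 13 rows, 9 log2 differences were below 0 and 4 above, with a median of −0.09. Of all tested genes, 50.7% were below 0. The 13 rows include Eif3j1 and Eif3j2, on opposite sides of 0, whose separate values are treated below. The summed TPM of the 13 was 2929 to 3155 in WT and 2881 to 2958 in TSC1-KO mice.

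Eif3j1 and Eif3j2 are near-identical copies of the gene for the loosely bound j subunit, and their single values depended on how reads were divided between them. Eif3j1 was at 25.9, 0.68 and 15.8 TPM in WT mice and at 1.46, 0 and 4.17 TPM in TSC1-KO mice. Eif3j2 was at 40.8, 62.3 and 45.1 TPM in WT mice and at 64.0, 65.5 and 64.3 TPM in TSC1-KO mice. The mice low in Eif3j1 were the mice high in Eif3j2, and WT replicate 2 resembled the TSC1-KO mice in both. The expected counts of Eif3j1 were 348, 10.4, 195, 18.2, 0 and 56.4 in the same order, and those of both genes were fractional in all mice but TSC1-KO replicate 2, whereas the sum of the pair was a whole number in each mouse: 906, 980, 761, 830, 791 and 943. The summed TPM was 66.6, 63.0 and 60.9 in WT mice and 65.5, 65.5 and 68.5 in TSC1-KO mice, with overlapping groups.

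Taken singly, Eif3j1 had the largest fall of the 49 genes (log2 difference −2.88, SE 1.07, edgeR adjusted p = 0.2) and Eif3j2 the largest rise (0.35, SE 0.15, adjusted p = 0.25), and neither passed. With their counts summed into 1 gene, the log2 difference was 0.04 (SE 0.073, 95% confidence interval −0.12 to 0.21, edgeR adjusted p = 0.79). Of all 100-base windows in the reference transcripts, 84.0% of those of Eif3j2 and 36.0% of those of Eif3j1 were also found in the other gene. The separate values of these copies are therefore uncertain.

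**Figure D3:**
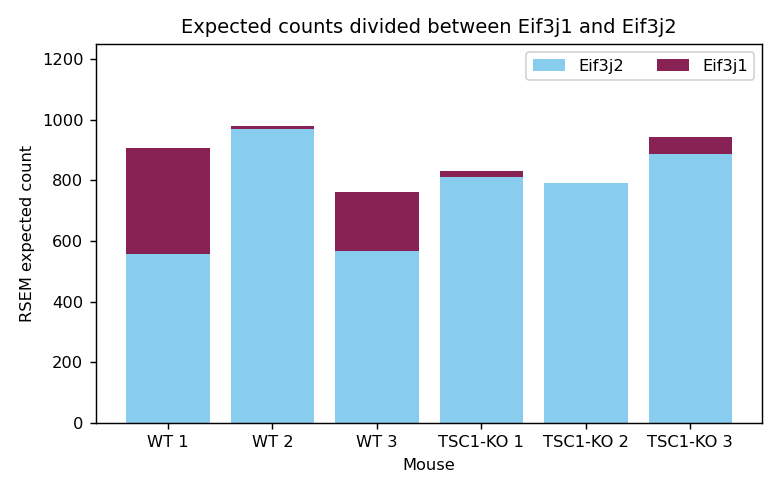
Expected counts of Eif3j1 and Eif3j2 (y axis, stacked bars from 0) in each of the 3 WT and 3 TSC1-KO mice (x axis). Eif3j1 takes 38.4%, 1.06% and 25.7% of the pair in WT mice and 2.20%, 0% and 5.98% in TSC1-KO mice, while the height of the whole bar stays between 761 and 980.

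The helicase Eif4a1, which unwinds the start of the mRNA for the ribosome, had the largest fall of the 43 factors. It was at 314, 329 and 321 TPM in WT mice (321 ± 7.40, SD, n = 3) and at 263, 266 and 283 TPM in TSC1-KO mice (270 ± 10.8, SD, n = 3), and the groups did not overlap. The log2 difference was −0.28 (SE 0.068, 95% confidence interval −0.43 to −0.13), with an edgeR adjusted p of 0.079. The adjusted p ran from 0.0316 to 0.28 over the alternatives and was below 0.05 with DESeq2 (0.0316), limma on log2(TPM + 1) (0.0466) and on log2(TPM + 0.1) (0.0490), the replicate block (0.0390), without WT replicate 1 (0.0453) and without TSC1-KO replicate 3 (0.0394). With each of the other 4 replicates left out it was 0.256 to 0.282. Eif4a1 lies on chromosome 11 (GRCm38, 69666936 to 69672423), and 60.8% of the 100-base windows of its transcript were also found in another reference transcript, most of all that of the pseudogene Eif4a-ps4, which was not analysed here. Its expected counts were whole numbers in every mouse.

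Eif4a2, the second gene for eIF4A, was at 763, 846 and 879 TPM in WT mice and at 790, 721 and 769 TPM in TSC1-KO mice, with overlapping groups (log2 difference −0.16, SE 0.087, edgeR adjusted p = 0.37). Eif4g3, a gene for the eIF4G scaffold that links the cap, the helicase and eIF3, lay the other way. It was at 139, 144 and 141 TPM in WT mice and at 165, 161 and 164 TPM in TSC1-KO mice, with groups well apart for their spread, but its log2 difference of 0.18 (SE 0.060, 95% confidence interval 0.05 to 0.32) had an edgeR adjusted p of 0.16. Its paralogue Eif4g1 overlapped between the groups at 235 to 266 TPM (log2 difference 0.02, SE 0.071). Eif4g2, which lacks the binding site for the cap-binding protein, was the most abundant initiation factor at 983 to 1160 TPM and overlapped between the groups (log2 difference 0.03, SE 0.091).

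Eif4h, a stimulator of the helicase, was at 313, 336 and 314 TPM in WT mice and at 282, 304 and 304 TPM in TSC1-KO mice, which lay below the WT mice (log2 difference −0.14, SE 0.070, edgeR adjusted p = 0.33). Eif4b, another stimulator and a phosphorylation target downstream of mTOR, was at 277 to 328 TPM with overlapping groups (log2 difference −0.12, edgeR adjusted p = 0.42). Eif4a3, an eIF4A relative that marks splice junctions in the exon junction complex and is not an initiation factor, was at 87.7 to 108 TPM (log2 difference −0.15, SE 0.10), also with overlapping groups.

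Eif5a, the hypusine-bearing factor that helps the ribosome through difficult sequences, was at 474 to 527 TPM with overlapping groups (log2 difference −0.06, SE 0.069). Its paralogue Eif5a2 was at 21.3, 20.4 and 23.4 TPM in WT mice and at 24.9, 26.8 and 27.8 TPM in TSC1-KO mice. Every TSC1-KO mouse lay above every WT mouse, by a log2 difference of 0.26 (SE 0.097, 95% confidence interval 0.04 to 0.48) that had an edgeR adjusted p of 0.2. Eif6, which keeps the large subunit from joining too early, was at 82.2, 84.8 and 79.7 TPM in WT mice and at 72.0, 79.3 and 73.3 TPM in TSC1-KO mice. The TSC1-KO mice lay below the WT mice, although WT replicate 3 and TSC1-KO replicate 2 were close (log2 difference −0.17, SE 0.083, edgeR adjusted p = 0.33).

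Elongation factors made up most of the factor mRNA. Eef1a1, which brings aminoacyl-tRNA to the ribosome, was at 9808, 10491 and 11004 TPM in WT mice (10434 ± 600.1, SD, n = 3) and at 9242, 8947 and 9240 TPM in TSC1-KO mice (9143 ± 169.9, SD, n = 3). Every TSC1-KO mouse lay below every WT mouse. The log2 difference was −0.22 (SE 0.081, 95% confidence interval −0.41 to −0.04), but the edgeR adjusted p was 0.19, and it ran from 0.068 to 0.49 over the alternatives. Of the 100-base windows of its transcript, 26.7% were shared with another reference transcript.

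Eef2, the translocase that an mTOR-regulated kinase inactivates, was at 1932, 2153 and 2029 TPM in WT mice and at 1851, 1878 and 1912 TPM in TSC1-KO mice. Eef1b2, a subunit of the exchange factor that reloads eEF1A, was at 473, 495 and 506 TPM in WT mice and at 447, 457 and 471 TPM in TSC1-KO mice. For both, the TSC1-KO mice lay below the WT mice, by log2 differences of −0.14 (SE 0.078, Eef2) and −0.13 (SE 0.070, Eef1b2) that did not pass the test (edgeR adjusted p = 0.36 for each). Eef1a2, the form of eEF1A that takes over in mature neurons and muscle, was at 187, 179 and 186 TPM in WT mice and at 190, 204 and 205 TPM in TSC1-KO mice. All 3 TSC1-KO mice lay above the WT mice (log2 difference 0.09, SE 0.069, edgeR adjusted p = 0.52). Eef1d, the other exchange subunit, was the least abundant of the 5 at 83.7 to 90.2 TPM, and its groups overlapped.

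The 45 factors together took 2.12% to 2.38% of all TPM. Their sum was 21899, 23402 and 23845 TPM in WT mice and 21535, 21162 and 21774 TPM in TSC1-KO mice, and the groups did not overlap. Eef1a1 alone was 44.8% to 46.1% of that sum in WT mice and 42.3% to 42.9% in TSC1-KO mice. Without it the sums were 12091, 12911 and 12841 TPM in WT mice and 12293, 12216 and 12534 TPM in TSC1-KO mice, which overlapped, so the separation of the total rested on that gene.

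**Figure D4:**
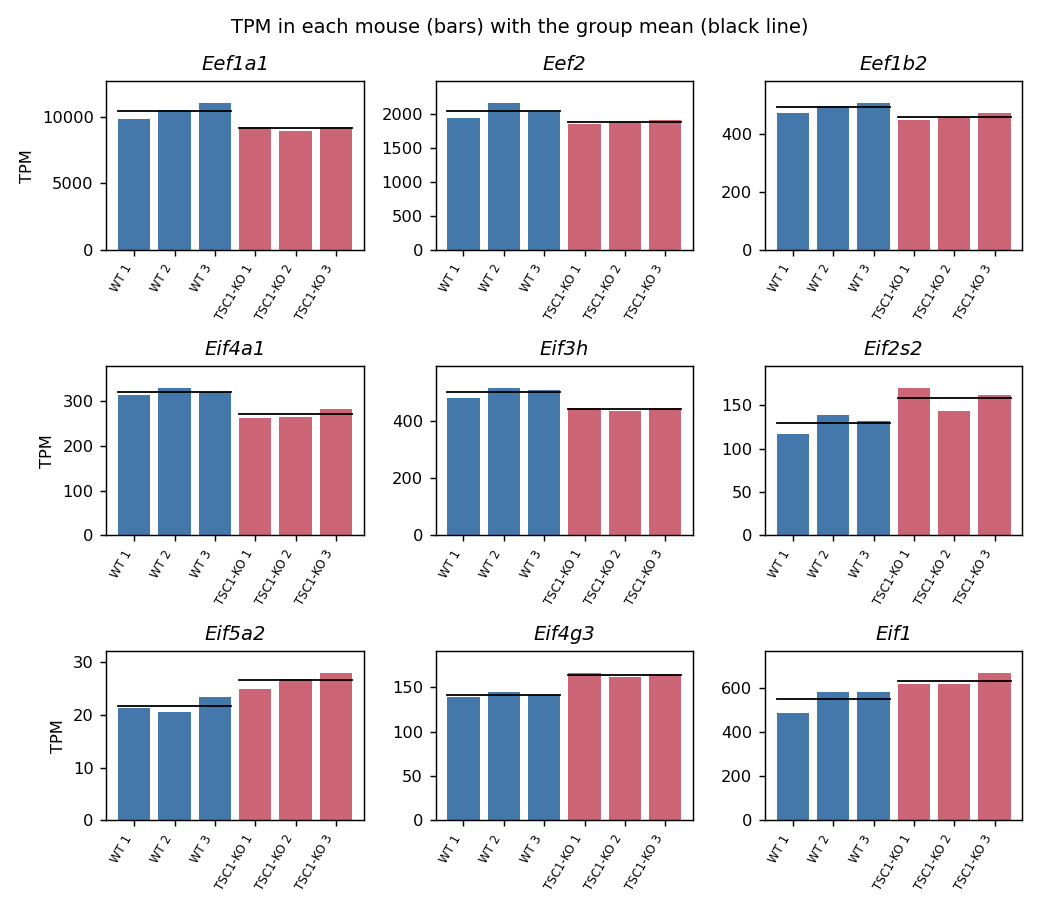
TPM (y axis, from 0) of 9 factors in each of the 3 WT mice (blue bars) and 3 TSC1-KO mice (red bars), with a black line at each group's mean. For Eef1a1, Eef2, Eef1b2, Eif4a1 and Eif3h all TSC1-KO mice lie below the WT mice, and for Eif2s2, Eif5a2, Eif4g3 and Eif1 above them, by small amounts on a scale that starts at 0. The 9 were picked for having groups that do not overlap.

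For 5 pairs of paralogues, the ratio of the 2 copies in TPM was compared within each mouse, since a ratio does not depend on the scaling of the library. With 3 mice against 3, the exact permutation test cannot give a p below 0.1. The Eef1a2 to Eef1a1 ratio was 0.0190, 0.0171 and 0.0169 in WT mice and 0.0206, 0.0228 and 0.0222 in TSC1-KO mice, a log2 difference of 0.31 without overlap. The Eif5a2 to Eif5a ratio was 0.0404, 0.0393 and 0.0466 in WT mice and 0.0526, 0.0514 and 0.0531 in TSC1-KO mice, a log2 difference of 0.32 without overlap. The Eif4g3 to Eif4g1 ratio was 0.559, 0.580 and 0.601 in WT mice and 0.695, 0.643 and 0.618 in TSC1-KO mice, a log2 difference of 0.17 without overlap.

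The Eif1b to Eif1 ratio moved the other way. It was 1.17, 1.19 and 1.18 in WT mice and 1.09, 1.07 and 0.986 in TSC1-KO mice (log2 difference −0.17), and the WT mice lay within a narrow range above all TSC1-KO mice. The Eif4a2 to Eif4a1 ratio was 2.43, 2.57 and 2.74 in WT mice and 3.01, 2.72 and 2.72 in TSC1-KO mice, and it overlapped (log2 difference 0.13, exact two-sided permutation p = 0.3). The 4 ratios without overlap each had an exact two-sided permutation p of 0.1, the smallest possible, or 0.125 after Benjamini-Hochberg adjustment over the 5 pairs, and so none passed a threshold of 0.05.

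**Figure D5:**
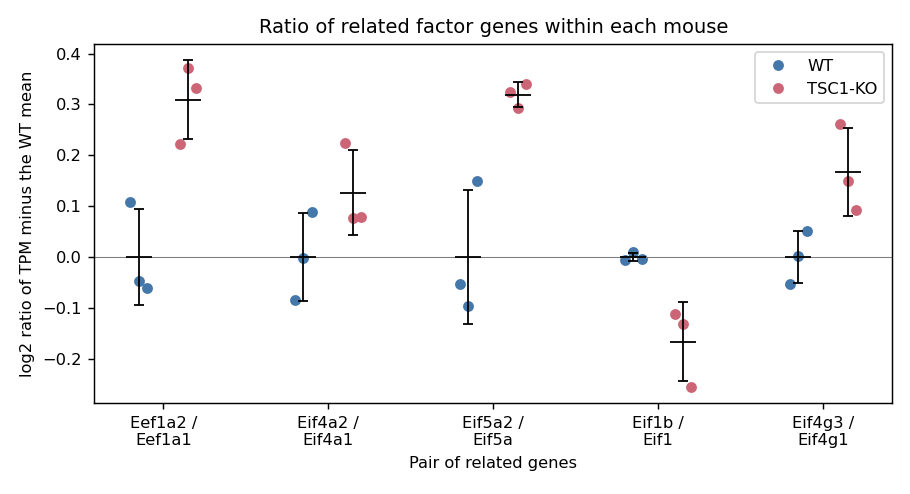
Log2 ratio of the TPM of 2 paralogues in each mouse, less the mean of the WT mice (y axis), for 5 pairs (x axis), with blue points for WT and red points for TSC1-KO mice, black dashes for the group mean and bars for its SD (n = 3). Of the 5, 3 ratios are higher in all TSC1-KO mice than in all WT mice, that of Eif1b to Eif1 is lower, and that of Eif4a2 to Eif4a1 overlaps.

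The 9 genes with a pyrimidine run near the annotated start are those whose sequences are given above. Of these, 6 had a log2 difference below 0, with a median of −0.04. Of the 30 with a window and no run, 16 were below 0, with a median of −0.02. The first base of the longest run lay between 20 bases before the start (Eif3m) and base 18 counted from it (Eef1a2). A run in this region therefore does not by itself mark a TOP mRNA. Over all tested genes, 49.7% of those with a run and 50.8% of those without were below 0. Eef1a1 and Eef1a2 both hold a run and lay on opposite sides of the WT mice. Eef2 and Eef1b2, which lay below the WT mice as Eef1a1 did, held no run that begins with a C and reaches the length searched for. The pyrimidine stretch tctcttcc stands in the bases shown for Eef2. It begins with a T, and counted from its first C it is too short for the rule. The search does not tell which of these genes give TOP mRNAs. Its matches describe letters in the annotated start region and do not show where transcripts begin in this tissue.

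Around these factors, 47 of 50 listed translation genes were in the tables, from the cap-binding proteins and kinases to release and mitochondrial factors. Of the 47, 1 rose and none fell by the edgeR test, against 0.859% of all genes called higher and 0.659% called lower. The median log2 difference of the 47 was 0.0056, and 21 were below 0. At the inhibitor step, Eif4ebp1, which encodes the cap-binding inhibitor 4E-BP1, was at 5.92, 8.45 and 8.88 TPM in WT mice and at 51.7, 36.1 and 33.2 TPM in TSC1-KO mice. It rose 5.04-fold (log2 difference 2.33, SE 0.23, edgeR adjusted p = 0.0026). The cap-binding protein itself, Eif4e, was at 160, 170 and 175 TPM in WT mice and at 150, 151 and 167 TPM in TSC1-KO mice, with overlapping groups (log2 difference −0.14, SE 0.081, edgeR adjusted p = 0.41). Tpt1, an abundant TOP mRNA, was at 1068, 1179 and 1151 TPM in WT mice and at 932, 915 and 976 TPM in TSC1-KO mice. These groups did not overlap, and the log2 difference was −0.31 (SE 0.074, edgeR adjusted p = 0.075, 0.0440 without TSC1-KO replicate 3, 0.0317 without WT replicate 1 and 0.255 to 0.291 with each of the other 4 replicates left out). Gnb2l1, the gene of the ribosomal scaffold RACK1, was at 1476, 1604 and 1637 TPM in WT mice and at 1314, 1309 and 1464 TPM in TSC1-KO mice (log2 difference −0.24, SE 0.086, edgeR adjusted p = 0.18), also without overlap. Other listed genes lay above the WT mice without overlap. Among them were the mitochondrial factor Gfm2 (log2 difference 0.29, SE 0.085, edgeR adjusted p = 0.12) and the eEF2 kinase gene Eef2k (0.20, SE 0.072, adjusted p = 0.19). The poly(A)-binding protein gene Pabpc1 did so by a small amount (0.05, SE 0.059, adjusted p = 0.70).

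The 4 Argonaute genes listed under their older symbols did not pass the test. Eif2c1 was the most abundant at 84.2 to 102 TPM, followed by Eif2c2 at 20.1 to 27.4 TPM, Eif2c4 at a mean of 14.9 TPM and Eif2c3 at 5.89 to 10.2 TPM over the 6 mice. The groups overlapped for each of the 4. Eif2c3 had the second largest rise of the 49 genes (log2 difference 0.27, SE 0.17, 95% confidence interval −0.12 to 0.66, edgeR adjusted p = 0.44). The expected counts of Eif2c1 and Eif2c3 were fractional, so some reads were divided with other genes.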

How the data were processed

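Total RNA was extracted from the telencephalon of 3 WT and 3 TSC1-KO mice for mRNA sequencing, with groups and replicate numbers taken from the sample labels. After trimming by the authors, reads were mapped with MapSplice2 (mm10), and RSEM 1.2.12 gave estimates for RefSeq transcripts (release not given in the sources used here). The deposited expected counts are RSEM's estimated counts per gene, with no normalization, and a read that matches several genes is divided among them. The deposited TPM values are those estimates divided by effective length and scaled to the same total in every mouse. The deposited effective lengths served as offsets in 1 alternative.

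The rounded expected counts were tested with edgeR 4.0.16 in R 4.3.3 (TMM, filterByExpr, quasi-likelihood test, Benjamini-Hochberg adjustment over 13969 genes, called below 0.05). Standard errors are the log2 difference divided by the square root of F. TPM describes levels. The study's own permutation score was not rerun. Alternatives were RLE and upper-quartile scaling, DESeq2 1.42.0, limma 3.58.1 on log2(TPM + 1) and log2(TPM + 0.1), no filter, the effective length offset, a block on replicate number, and leaving out each replicate in turn and both replicates 3. Fitting the summed counts of Eif3j1 and Eif3j2 was added after seeing the data. Paralogue ratios were compared by exact permutation in Python 3.11.15 with scipy 1.17.1. The edgeR fits with TMM, RLE, the replicate block and the effective length offset, DESeq2 and limma on log2(TPM + 1) were tested on simulated data. The simulation gave every gene the same dispersion. The other alternatives were not simulated. Controls were littermates per the study's methods, but the labels tie no replicate number to a litter, so p-values measure the spread between these samples.

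The genes and lists were chosen with earlier results of these data known. Named by rule were called genes, the 5 largest rises and falls, the highest and lowest gene of each role, both genes of each pair, and called translation genes. The remaining genes were given values to account for all 49, and Eif4e, Tpt1, Gnb2l1, Gfm2, Eef2k and Pabpc1 were chosen after their values were seen. Each library was checked to differ from the others of its group. Sequences and positions are from RefSeq for GRCm38.p6, in which 39 of 49 genes matched a start window.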

Additional observations from a re-analysis of the deposited data

How the results depend on the processing

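The number of the 49 genes called lower was 0 with edgeR and became 1 (Eif4a1) with DESeq2 (2.21% of all genes called lower) and with limma on log2(TPM + 1) (0.988%) and on log2(TPM + 0.1) (0.873%). Leaving out 1 replicate in turn gave 0 to 2: Eif4a1 without TSC1-KO replicate 3 (3.06% of all genes called lower) and Eif3h and Eif4a1 without WT replicate 1 (1.19%). No alternative called any of the 49 higher. Of the listed translation genes, 1 (Tpt1) was called lower with DESeq2 and both limma fits, and 0 to 1 with a replicate left out. Over all genes, the calls were 212 with edgeR, 640 with DESeq2, 346 with no filter, 179 with upper-quartile scaling and 434 without replicate 3 of both groups, and 29 to 799 with 1 replicate left out. Tsc1 passed with DESeq2 (log2 difference −0.65) and without replicate 3 of both groups (−0.76), and its log2 difference ranged from −0.79 to −0.40 with replicates left out. The cause of these shifts was not tested.

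Whether the replicate numbers pair the mice could not be told from the values. Deviations of same-numbered mice correlated at 0.267, −0.133 and 0.318, and 4 of 6 mice correlated best with their own number. With the replicate block, 551 genes were called, 2 of the 49 lower (Eif3j1 and Eif4a1, against 1.99% of all genes), 1 translation gene lower (Tpt1), and Tsc1 (log2 difference −0.63).

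The direction held under all 15 alternatives for 36 of the 49 genes and reversed under at least 1 for 13, all close to 0. With upper-quartile scaling, which moved the median of all genes to −0.03, the log2 differences that reversed were −0.0040 (Eif1ax), −0.0020 (Eif2s1), −0.026 (Eif3e), −0.026 (Eif3m), −0.011 (Eif4g1), −0.0023 (Eif4g2) and −0.011 (Eif5b). Without replicate 3 of both groups, Eif1b was 0.052, Eif2b2 0.031 and Eif4g1 −0.040. Eif1b was 0.0034 with the effective length offset, 0.041 with each limma fit and 0.0024 with the replicate block, and Eif2b2 was 0.020 and 0.019 with limma at pseudocounts of 0.1 and 1. With 1 replicate left out, log2 differences ranged from −0.11 to 0.057 (Eif1b), −0.085 to 0.0026 (Eif2a), −0.076 to 0.038 (Eif2b2), −0.020 to 0.086 (Eif2c1), −0.021 to 0.088 (Eif2s1), −0.18 to 0.11 (Eif2s3x), −0.077 to 0.00044 (Eif3b), −0.037 to 0.085 (Eif3e), −0.058 to 0.084 (Eif3m), −0.033 to 0.073 (Eif4g1), −0.040 to 0.089 (Eif4g2) and −0.029 to 0.052 (Eif5b). With 3 mice against 3, the median standard error of 0.080 limits what can be told for the 43 factors.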

Other observations

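Eif2s3x has a Y-linked partner, Eif2s3y, that encodes nearly the same eIF2 gamma subunit, and the sample labels do not give the sex of the mice. Xist, the RNA that coats the inactive X chromosome, was at 510, 488, 488 and 442 TPM in WT replicates 1 and 2 and TSC1-KO replicates 1 and 2, and at 0.48 and 0.66 TPM in replicate 3 of WT and of TSC1-KO. Eif2s3y was at 0 in the 4 mice high in Xist and at 114 and 78.0 TPM in the other 2. Eif2s3x was at 292 to 313 TPM in the 4 mice high in Xist and at 209 and 206 TPM in the other 2, a ratio of means of 1.45. The X-linked Eif1ax was at 315 to 342 and at 319 to 333 TPM in the same mice, a ratio of means of 1.02. The sum of Eif2s3x and Eif2s3y was 292, 313 and 323 TPM in WT and 302, 299 and 284 TPM in TSC1-KO mice. Each genotype held 1 mouse low in Xist, so this difference did not separate the genotypes. These groups of mice were defined from the data, and no test was made between them.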
